A study of Mus musculus with 4 samples.

Results

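ATF4 is the transcription factor of the integrated stress response, and the genes it drives supply a cell with amino acids. When a kinase of the translation factor eIF2 is activated by amino acid shortage, unfolded proteins, viral RNA or loss of heme, general translation drops and translation of the Atf4 mRNA rises. ATF4 then binds C/EBP-ATF response elements, often with a C/EBP partner, and raises genes for amino acid synthesis, amino acid uptake and the charging of tRNA, along with regulators that feed back on the response. In macrophages the same genes feed the demand for serine, glycine, cysteine and asparagine that comes with activation.

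These genes were read as a set of 36 named members on arrays of RAW264.7 cells, a macrophage-like line derived from mouse leukemia virus-induced tumour cells. The members were chosen by name from the ATF4 literature and sorted by role: 13 regulators and feedback genes, 11 genes of amino acid synthesis, 4 amino acid transporters and 8 cytosolic aminoacyl-tRNA synthetases, the enzymes that charge tRNA. The choice was made with earlier results of these data known. Of the 36, 35 had a named probe among the 22907 genes with one, and 34 were well above background on all 4 arrays, against 12469 of all genes. No probe was matched to Pycr1, a proline synthesis enzyme, and Vldlr, a lipoprotein receptor gene, was not well above background on any array, so neither is compared.

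The study has 4 groups of 1 array each, hybridised with Cy3-labelled cRNA on a 1-colour whole-genome Agilent mouse array. All cells were RAW264.7 taken 2 days after transfection, with a non-targeting siRNA (control siRNA) or a SMARTpool, a pool of siRNAs, against Ruvbl2, and with DMSO or with LPS, the bacterial lipopolysaccharide sensed by Toll-like receptor 4. The labels spell the siRNA target without one letter and the series title names RUVBL2, an ATPase of chromatin remodelling and chaperone complexes. The series asks about the role of RUVBL2 in the proinflammatory response to LPS. The labels name electroporation or a lipid reagent for the transfection without saying which was used for which array, and they state no LPS dose or duration.

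Since every group is a single array, no difference has a replicate error or a p-value. A level here is the log2 processed signal of the gene's brightest probe, centred so that 0 is the 75th percentile of the RNA probes on that array. Levels of different genes cannot be set against each other, since probes differ in brightness. A difference between arrays is called at 2-fold (1 on the log2 scale). The only measured error is technical: probes printed 10 times gave a standard deviation (technical SD) of a log2 difference of 0.064 above a level of 4 (267 probes), 0.085 from 2 to 4 (2 probes), 0.14 from 0 to 2 (3 probes) and 0.26 from -4 to -2 (6 probes). No repeated probe lay from -2 to 0, where the value of the class below was used. This error was derived from the spread of repeated spots within each array. It does not cover labelling, hybridisation, slide position or variation between cultures, and precision is limited by having so few arrays.

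Array quality was alike. Between 54.1% and 55.0% of RNA spots were well above background, no spot was saturated, and the 75th percentile of the processed signal ran from 331 to 456. Both control siRNA arrays lay in slide row 1 and both Ruvbl2 siRNA arrays in slide row 2, and the effects of row and siRNA cannot be told apart. All 9 macrophage markers were well above background on all 4 arrays, against 1 of 5 fibroblast, 1 of 4 B cell, 0 of 4 epithelial and 0 of 4 mast cell markers. Of 5 T cell markers 3 were above it, and Cd3g and Cd8a were not on any array. Of 5 osteoclast markers 4 were above background on all arrays, without a common direction. With Ruvbl2 siRNA, Acp5 (1.51 in DMSO, 0.95 in LPS) and Ctsk (1.17, 1.71) were higher, Ocstamp (-0.87, 0.13) and Dcstamp (-0.22, -0.07) were not, and Calcr was above background on 1 array alone. The log2 of the summed level of all 5 was 3.82 and 4.26 with control siRNA in DMSO and LPS against 4.22 and 4.87 with Ruvbl2 siRNA. The part of these markers in the results was not tested. In such bulk RNA, fewer cells of a type and less RNA per cell cannot be told apart. Ruvbl2 itself had levels of 5.01 and 4.92 with control siRNA in DMSO and LPS and of 4.67 and 4.51 with its siRNA, differences of -0.34 (technical SD 0.064) and -0.40 (0.064), both short of 2-fold. A second, dimmer Ruvbl2 probe gave -0.55 in DMSO and -0.12 in LPS (technical SD 0.26), so its value in LPS was within technical error.

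The DNA element through which ATF4 acts was looked for in the promoters of the members. Genes enter the ATF4 literature in part through this element, so its share among the members is not independent of how they were chosen. RefSeq promoter windows on GRCm38.p6 (250 bases before to 50 bases after each start) were matched by symbol for 30 of the 36 members. The core of the C/EBP-ATF response element, TGATGNAA, searched on both strands, was in the windows of 10 of these 30 members (33.3%), against 1219 of all 27025 genes with a window (4.51%) and 1304 of all 32851 windows (3.97%). The cAMP response element TGACGTCA, a different motif, was in 1 of 30, that of Ppp1r15a, against 2.03% of genes and 1.79% of windows. A match is a description of the letters and not a bound site.

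The 8 measured members with a core match are shown, on the gene's strand from 5′ to 3′, with the matched bases in capitals and at least 26 bases on either side. They cover 3 of the 4 roles, and Trib3, Chac1 and Pck2 are among the 5 members past 2-fold between siRNAs in LPS.
Trib3 (chr2:152344013-152344072, minus strand): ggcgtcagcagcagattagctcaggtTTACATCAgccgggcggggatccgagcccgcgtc
Chac1 (chr2:119351023-119351082, plus strand): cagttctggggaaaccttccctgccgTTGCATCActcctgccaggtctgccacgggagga
Nupr1 (chr7:126625547-126625606, minus strand): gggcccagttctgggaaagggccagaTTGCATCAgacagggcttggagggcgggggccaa
Asns (chr6:7693199-7693258, minus strand): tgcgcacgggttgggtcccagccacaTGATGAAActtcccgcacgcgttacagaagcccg
Pck2 (chr14:55540137-55540196, plus strand): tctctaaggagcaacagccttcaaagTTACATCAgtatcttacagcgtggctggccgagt
Aars (chr8:111033704-111033884, plus strand): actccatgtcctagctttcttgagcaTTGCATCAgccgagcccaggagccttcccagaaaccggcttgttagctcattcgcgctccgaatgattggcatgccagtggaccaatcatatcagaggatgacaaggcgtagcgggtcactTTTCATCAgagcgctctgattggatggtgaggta
Gars (chr6:55037945-55038004, plus strand): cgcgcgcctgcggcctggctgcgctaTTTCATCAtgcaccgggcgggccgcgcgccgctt
Iars (chr13:49682111-49682170, plus strand): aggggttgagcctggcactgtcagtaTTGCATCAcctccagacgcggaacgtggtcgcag

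In 7 of these 8 the core lies on the opposite strand, and Asns alone has it as written. Relative to the start site, the first matched base is at -193 in Chac1, -110 in Nupr1, -103 in Pck2, -30 in Gars and -23 in Asns. In Trib3 it is at 15 and in Iars at 8, inside the transcript. The Aars window has a match at -112 and another at 10. TTGCATCA is shared by Chac1, Nupr1, Aars and Iars, and TTACATCA by Trib3 and Pck2. The Pycr1 and Vldlr windows also held the core.

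Under LPS, nearly the whole set was lower with Ruvbl2 siRNA than with control siRNA. Of the 34 members 31 lay below 0, the median log2 difference was -0.42, and 5 were 2-fold lower and 0 higher. Among the 13470 genes compared, the median was 0.00, 1.46% were 2-fold lower and 1.06% 2-fold higher (2.52% in either direction). Since the members were chosen with earlier results of these data known, their contrast with all genes may not be independent of that choice. At 1.5-fold, 10 members and 5.26% of all genes were lower. Counted against technical error alone, 26 members were lower by at least 2 technical SDs and 1 was higher, against 15.5% and 17.5% of the 12782 genes measured on both arrays. The 5 past 2-fold were Cth, Trib3, Pck2, Chac1 and Ddit3, and each stayed past it under all 9 alternative settings. Some of these settings, namely the changed filters on dim values and the 1.5-fold rule, could not alter the 5 differences. Averaging a gene's probes could alter only that of Pck2. The control siRNA LPS array gave the highest of the 4 levels for 26 of the 34 members, against 28.9% of all genes, and the siRNA difference in LPS and the LPS difference with control siRNA share that array. The Ruvbl2 siRNA LPS array gave the lowest level for 15 members (44.1%), against 21.3% of all genes.

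**Figure D1:**
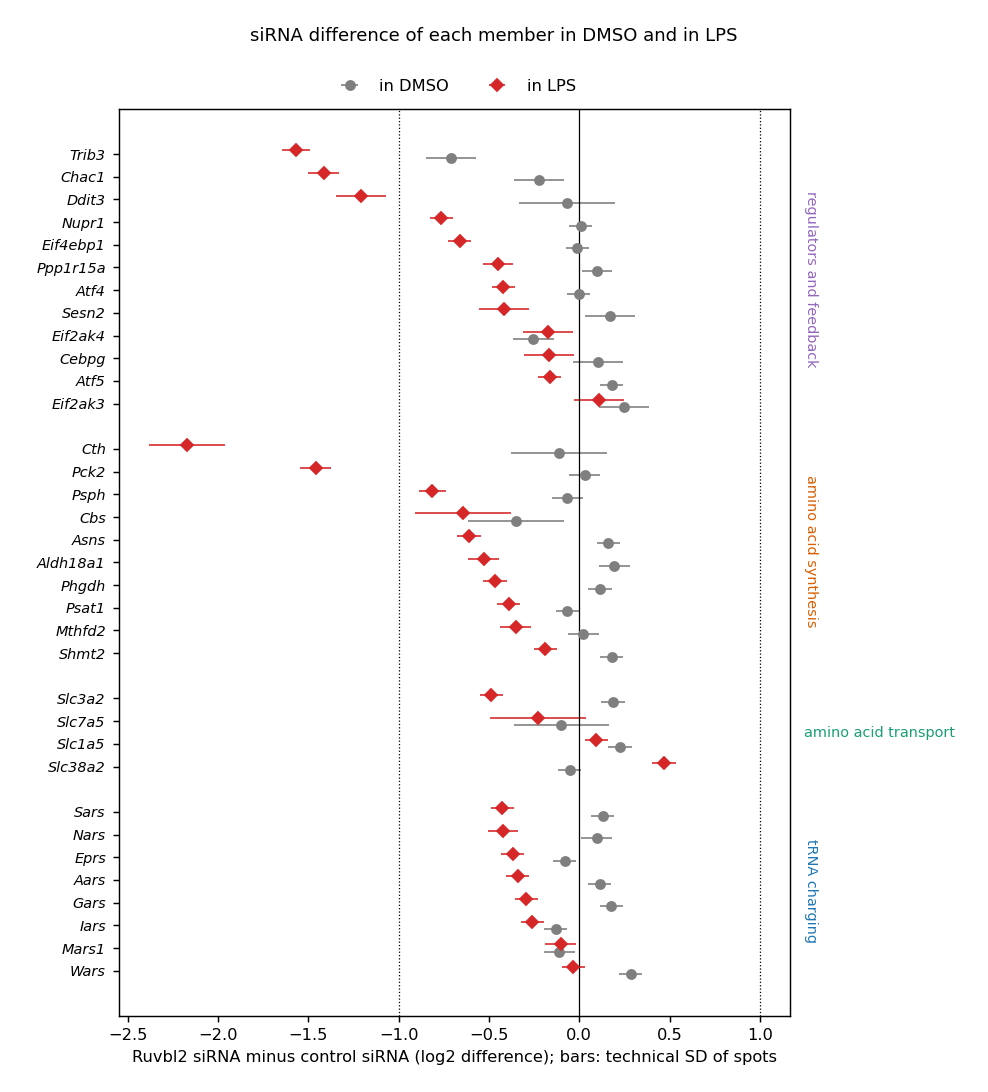
Log2 difference between Ruvbl2 siRNA and control siRNA for the 34 measured members (rows, grouped by role) in DMSO (grey circles) and in LPS (red diamonds), each from 1 array against 1; bars show the technical SD of spots and dotted lines mark 2-fold. In LPS 31 of 34 points lie left of 0 and 5 pass the left dotted line, while in DMSO 15 of 34 lie left of 0 and none passes either line.

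Among the regulators, Trib3, Chac1 and Ddit3 were past 2-fold. Trib3 encodes a pseudokinase that binds ATF4 and dampens it. Its level was 1.75 with control siRNA in DMSO, 4.16 with control siRNA in LPS, 1.04 with Ruvbl2 siRNA in DMSO and 2.59 with Ruvbl2 siRNA in LPS. The control siRNA LPS array was thus the highest, and Ruvbl2 siRNA was lower in both treatments, by 1.64-fold in DMSO and 2.96-fold in LPS (log2 differences of -0.71 and -1.57, technical SDs 0.14 and 0.075).

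Chac1 encodes an enzyme that breaks down glutathione. Its levels in the same order were 1.96, 3.89, 1.74 and 2.48. The DMSO arrays were close (-0.22, technical SD 0.14), and in LPS the Ruvbl2 siRNA array was 2.67-fold lower (-1.42, technical SD 0.085). Ddit3 encodes CHOP, a C/EBP-family factor of prolonged stress, and read 0.00, 1.78, -0.07 and 0.57. It was 2.31-fold lower with Ruvbl2 siRNA in LPS (-1.21, technical SD 0.14) and differed by -0.07 in DMSO (technical SD 0.26).

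Atf4 mRNA followed with a smaller difference. Its levels were 7.68, 8.20, 7.68 and 7.78, and the siRNA difference was -0.42 in LPS and 0.00 in DMSO (technical SD 0.064). A dimmer probe of Atf4 read lower with Ruvbl2 siRNA in both treatments, by -0.33 in LPS and by -0.41 in DMSO, so the 2 probes differ on the resting value. Since ATF4 is controlled largely at translation, the mRNA does not give the amount of the protein.

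Other feedback genes downstream of ATF4 had siRNA differences in LPS short of 2-fold. Nupr1, a small stress-induced chromatin protein, had levels of 4.38, 5.03, 4.39 and 4.27 and a siRNA difference in LPS of -0.76. Eif4ebp1, which holds back cap-dependent translation, had 5.86, 6.32, 5.85 and 5.66 and a difference of -0.66. In both, only the control siRNA LPS array stood above the other 3. Ppp1r15a, the eIF2 phosphatase subunit that ends the response, differed by -0.45 and Sesn2, a leucine sensor that restrains mTORC1, by -0.41.

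Members acting upstream or beside ATF4 moved little by their brightest probes. The eIF2 kinase genes Eif2ak3 (PERK) and Eif2ak4 (GCN2, the sensor of uncharged tRNA) differed by 0.11 and -0.18 in LPS, each within 2 technical SDs of 0.14. Cebpg, which pairs with ATF4 on DNA, differed by -0.17 and Atf5, a factor of the same subfamily, by -0.16. A dimmer Cebpg probe gave -0.35 (technical SD 0.14), beyond 2 technical SDs, and a dimmer Atf5 probe gave -0.13. Of the 12 regulators measured, 11 lay below 0 with a median of -0.43.

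**Figure D2:**
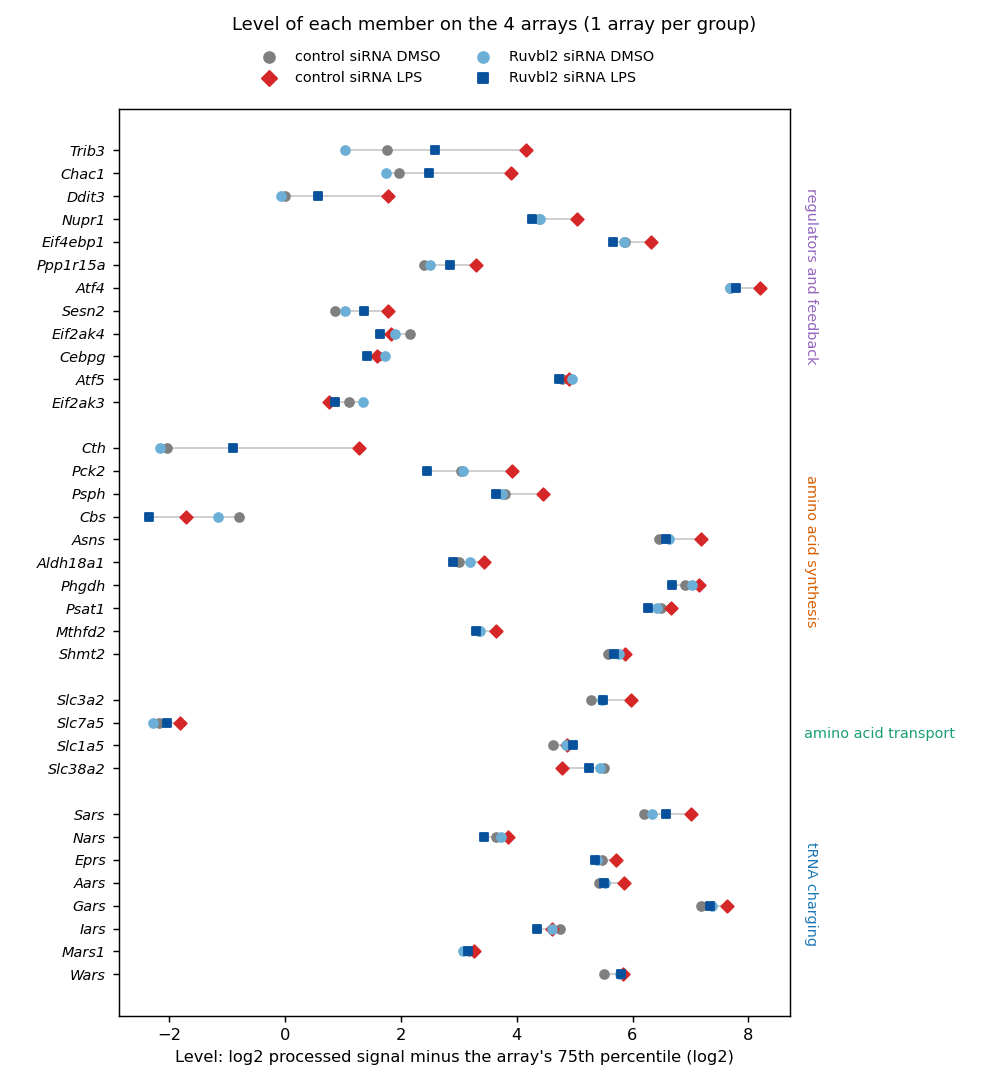
Level of each of the 34 measured members (rows, grouped by role and ordered by the siRNA difference in LPS) on the 4 arrays, on the log2 scale centred on each array's 75th percentile, 1 marker per array. The red diamond, control siRNA in LPS, is the rightmost marker for 26 of 34 members; for Slc38a2 and Eif2ak3 it is the leftmost.

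All 10 measured synthesis genes were lower with Ruvbl2 siRNA in LPS, with a median of -0.57 and 2 past 2-fold. Cth, cystathionine gamma-lyase, makes cysteine from cystathionine. Its level was -2.05 with control siRNA in DMSO, 1.27 with control siRNA in LPS, -2.16 with Ruvbl2 siRNA in DMSO and -0.90 with Ruvbl2 siRNA in LPS. The DMSO arrays were alike within technical error (-0.11, technical SD 0.26), and in LPS the level with Ruvbl2 siRNA was 4.50-fold lower (-2.17, technical SD 0.21), the largest difference of any member in either siRNA comparison.

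Pck2 encodes the mitochondrial phosphoenolpyruvate carboxykinase. Its levels were 3.04, 3.91, 3.07 and 2.45, so the Ruvbl2 siRNA LPS array was the lowest of the 4 and the control siRNA LPS array the highest. Among the 10 synthesis genes, the first was the lowest for 7 and the second the highest for 9. The Pck2 siRNA difference was 0.03 in DMSO and -1.46 in LPS (technical SD 0.085), which is 2.75-fold lower. A second Pck2 probe gave 0.16 in DMSO and -1.39 in LPS.

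The serine and asparagine branches showed the same direction at smaller size. Asns, which makes asparagine, had levels of 6.46, 7.18, 6.62 and 6.57 and a siRNA difference of -0.61 in LPS, with -0.73 by its second probe. Psph, the last enzyme of serine synthesis, had 3.80, 4.46, 3.74 and 3.65 and a difference of -0.81. For both, the control siRNA LPS array was the highest and the other 3 lay close together. The earlier serine enzymes Phgdh and Psat1 differed by -0.47 and -0.39.

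The mitochondrial folate genes Mthfd2 and Shmt2, which turn serine into glycine and formate, differed by -0.35 and -0.19. Aldh18a1, the entry to proline synthesis, differed by -0.53. Cbs, which forms cystathionine ahead of Cth, had low levels (-0.81, -1.71, -1.16 and -2.35) and a difference of -0.64 in LPS with a technical SD of 0.26. Unlike Cth, Cbs was lower in LPS than in DMSO with both siRNAs.

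Transport was the one role without a common direction. Slc3a2, the heavy chain shared by several amino acid exchangers, had levels of 5.28, 5.98, 5.46 and 5.49 and a siRNA difference in LPS of -0.49 (technical SD 0.064). A second, dimmer probe gave -0.09. Its partner Slc7a5 (LAT1, the leucine exchanger) differed by -0.23, within a technical SD of 0.26. Slc1a5, a glutamine carrier, differed by 0.09.

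Slc38a2 (SNAT2, a sodium-coupled carrier of small neutral amino acids) went the other way. Its levels were 5.50, 4.79, 5.45 and 5.25, so the control siRNA LPS array was the lowest of the 4. The siRNA difference in LPS was 0.47 (technical SD 0.064), the only member higher by at least 2 technical SDs.

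The 8 tRNA synthetases were lower in LPS by narrow amounts, with a median of -0.32, a range of -0.42 to -0.03 and none past 2-fold. Sars, which charges serine tRNA, had the levels 6.21, 7.005, 6.34 and 6.58 and a difference of -0.42. Gars, for glycine, had 7.19, 7.64, 7.37 and 7.34 and a difference of -0.29. Nars (asparagine, -0.42), Eprs (glutamate and proline, -0.37), Aars (alanine, -0.34) and Iars (isoleucine, -0.26) were lower by at least 2 technical SDs. The dimmer Eprs probes gave -0.37, -0.11 and -0.11 (technical SD 0.085), the smaller values within 2 technical SDs. Mars1 (methionine, -0.10) and Wars (tryptophan, -0.03) were within 2 technical SDs, although a dimmer Wars probe gave -0.30 (technical SD 0.14). Wars is known as an interferon-inducible gene besides its place among ATF4 targets.

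Members with the core in their promoter window had larger differences in LPS than those without. The 8 with it had a median of -0.69 (range -1.57 to -0.26) and 3 were 2-fold lower, while the 20 with a window lacking it had a median of -0.40 and 1 was. Across all genes, 330 with the core had a median of -0.06 and 3.64% were 2-fold lower, against 0.01 and 1.28% for the 10435 without. The members are included in these counts, so the 2 contrasts overlap. Cth has no window in the table, and the Ddit3 window lacks the core. These are descriptions with no test.

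Without LPS the set was level between siRNAs by the brightest probes. In DMSO 19 members lay above 0 and 15 below, with a median of 0.03 against 0.04 for all genes, and 0 were called. Among all genes 1.01% were 2-fold higher and 0.537% lower (1.55% either way). At 1.5-fold, 1 member and 2.5% of all genes were lower. Trib3 (-0.71), Cbs (-0.35) and Eif2ak4 (-0.25) were the lowest and Wars (0.28), Eif2ak3 (0.25) and Slc1a5 (0.23) the highest. Wars rests on its brightest probe here, since a dimmer one gave -0.29 (technical SD 0.14). Dimmer probes of Psat1 (-0.48, technical SD 0.11) and Atf4 (-0.41, technical SD 0.085) read lower than Cbs and Eif2ak4. In DMSO 7 of 13 other measured probes had the direction of the representing probe. The tRNA synthetases had a median of 0.10 and the synthesis genes one of 0.03. Scaled on spike-in RNA in place of the 75th percentile, the median of all genes in DMSO moved to -0.23 and that of the members to -0.24, so the sign of these small differences depends on the scaling while the gap to all genes, -0.02, does not.

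LPS in cells with control siRNA came with a higher level for most members. Of 34, 28 lay above 0, the median was 0.40, and 4 were 2-fold higher and 0 lower, while 5.74% of all genes were 2-fold higher and 2.21% lower (7.95% either way) with a median of 0.00. At 1.5-fold, 12 members were higher and 2 lower, against 11.9% and 8.11% of all genes. Cth was 9.98-fold higher (3.32, technical SD 0.21), Trib3 5.29-fold (2.40, technical SD 0.11), Chac1 3.82-fold (1.93) and Ddit3 3.42-fold (1.78, technical SD 0.21). Sesn2 (0.91), Ppp1r15a (0.89), Pck2 (0.87), Sars (0.80), Asns (0.72) and Slc3a2 (0.70, but -0.03 by its dimmer probe) followed short of 2-fold, and Cbs (-0.90) and Slc38a2 (-0.71) lay on the other side. The regulators had a median of 0.59, the synthesis genes 0.37, the transporters 0.31 and the tRNA synthetases 0.29.

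With Ruvbl2 siRNA, read from the other 2 arrays, the LPS differences of the members centred near 0. Of 34, 13 lay above 0 and 21 below, with a median of -0.06 against -0.03 for all genes. Trib3 (2.92-fold, 1.55) and Cth (2.39-fold, 1.26) were 2-fold higher and Cbs was 2.29-fold lower (-1.20), where 4.14% of all genes were 2-fold higher and 2.07% lower (6.21% either way). At 1.5-fold, 4 members were higher and 2 lower, against 9.12% and 7.84% of all genes. The Cth call ended with normexp background correction and quantile normalization (0.86), and that of Cbs with it (-0.73) and with spike-in scaling (-0.87). Chac1 (0.74) and Ddit3 (0.63) were higher by less than 2-fold. Asns differed by -0.05, Psph by -0.09 and Atf4 by 0.10. The dimmer Atf4 probe gave 0.45 (technical SD 0.085) here and 0.36 with control siRNA, so the small Atf4 value rests on 1 probe. With spike-in scaling the median of members became 0.27 and that of all genes 0.30.

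**Figure D3:**
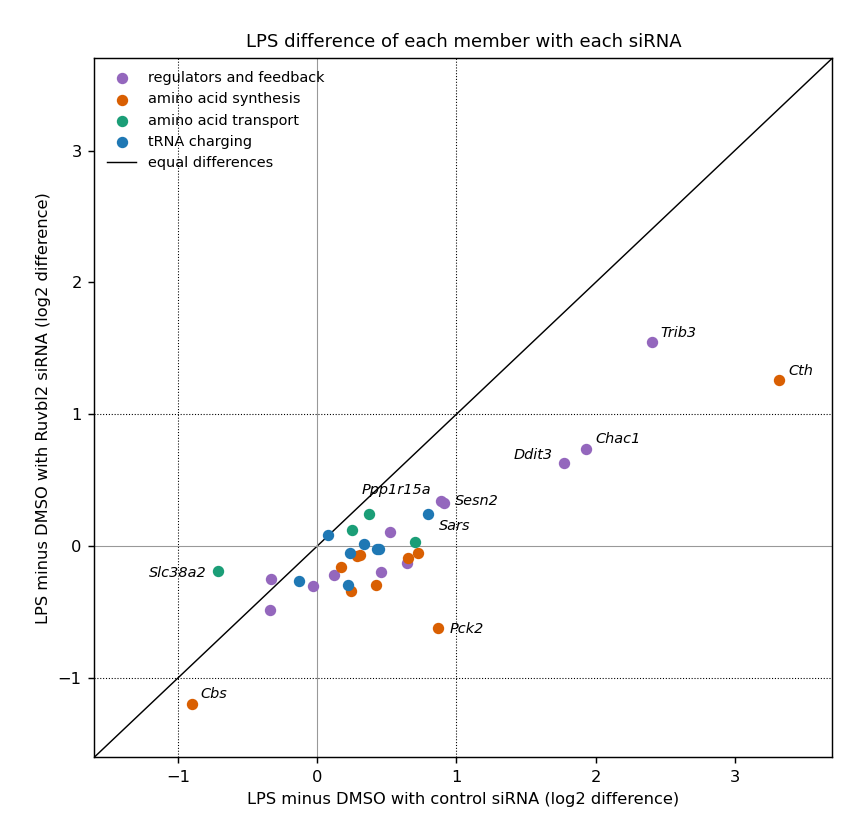
Log2 LPS difference of each of the 34 measured members with control siRNA (x axis) and with Ruvbl2 siRNA (y axis), coloured by role; each axis rests on its own pair of arrays, the solid line marks equal differences and dotted lines mark 2-fold. 31 of 34 points lie below the line, Cth, Trib3, Chac1 and Ddit3 pass 2-fold on the x axis, and Pck2 lies at 0.87 and -0.62.

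The difference between the LPS differences (Ruvbl2 siRNA minus control siRNA) was below 0 for 31 of 34 members, with a median of -0.46 against -0.03 for 12469 genes. It reached -1 for 4 members, Cth (-2.06, technical SD 0.34), Pck2 (-1.49, technical SD 0.12), Chac1 (-1.19) and Ddit3 (-1.14), where 1.18% of all genes did and 0.513% reached 1 (1.69% either way). At 1.5-fold, 12 members and 5.22% of all genes were lower. Trib3, which was also lower in DMSO, stood at -0.86. Slc38a2 (0.52), Eif2ak4 (0.08) and Mars1 (0.01) were above 0. These counts use the brightest probes. By dimmer probes, the LPS differences with control siRNA and Ruvbl2 siRNA were 0.36 and 0.45 for Atf4 and 0.31 and 0.36 for Psat1. For these probes the value with Ruvbl2 siRNA was thus the larger. With spike-in scaling, all genes moved to 0.21 and the members to -0.22, the gap staying at -0.43, and Chac1 (-0.95) and Ddit3 (-0.90) no longer reached -1.

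Other genes of the pathway were taken from lists by role, which like the members were chosen with earlier results of these data known. Among all genes in LPS, 1.46% were 2-fold lower with Ruvbl2 siRNA and 1.06% were higher. Of the 13 other reported ATF4 targets compared in LPS, 5 were 2-fold lower with Ruvbl2 siRNA and 0 higher, with a median of -0.73. They were Atf3, a stress-induced repressor (-1.86), Ddit4, an inhibitor of mTORC1 (-1.44), Stc2, a secreted glycoprotein of stressed cells (-1.18), Vegfa, an angiogenic factor (-1.12), and Gdf15, a stress cytokine detected above background in no other array than control siRNA with LPS (at least 2.24-fold). Atf3 (-1.18), Stc2 (-0.72), Vegfa (-0.57) and Ddit4 (-0.34) were also lower in DMSO, where Gdf15 was not compared. Of the 12 targets compared in DMSO, 7 lay above 0 and 5 below. Atf3, Ddit4 and Vegfa answer to other stress pathways too. The others were mixed, with Sqstm1, an autophagy receptor, at -0.73 and Herpud1 and Cebpb both at 0.07, chosen for naming after their values were seen.

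The other amino acid genes moved in single members rather than as lists. Aldh1l2, a mitochondrial enzyme of the folate cycle, had levels of -0.80, 0.53, -0.85 and -1.27 and differed by -1.80 in LPS and by -0.05 in DMSO. The folate list as a whole had a median of 0.04 in LPS, with 6 of 14 below 0. Gpt2, which makes alanine in mitochondria, differed by -1.16, and Ass1, which makes argininosuccinate from citrulline, by -1.21, while that list had a median of 0.04 over 20 genes. Among 17 other transporters the median was -0.06, and Slc7a7, an arginine and leucine exchanger that pairs with Slc3a2, was 2-fold lower (-1.25). Slc7a11, the cystine importer, had levels of -1.11, 0.36, -1.03 and -0.06 and differed by -0.42.

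Charging genes outside the member set showed a smaller shift. Of 16 other cytosolic synthetases and cofactors, 12 lay below 0 in LPS with a median of -0.09, led by Cars for cysteine (-0.40) and Lars for leucine (-0.28). The 4 above 0 were led by Xpot (0.37) and Farsa (0.36). These genes were chosen for naming after their values were seen. The 17 mitochondrial synthetases had a median of 0.00 and 8 below 0. The 16 genes of the eIF2 kinase, eIF2B and phosphatase machinery had a median of -0.02, and 13 genes of the other arms of the unfolded protein response one of 0.00 with 7 below 0. No gene of these 4 lists was called in LPS. Hspa5 (BiP), the main chaperone of the endoplasmic reticulum, differed by -0.03 in LPS, named here after its value was seen.

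**Figure D4:**
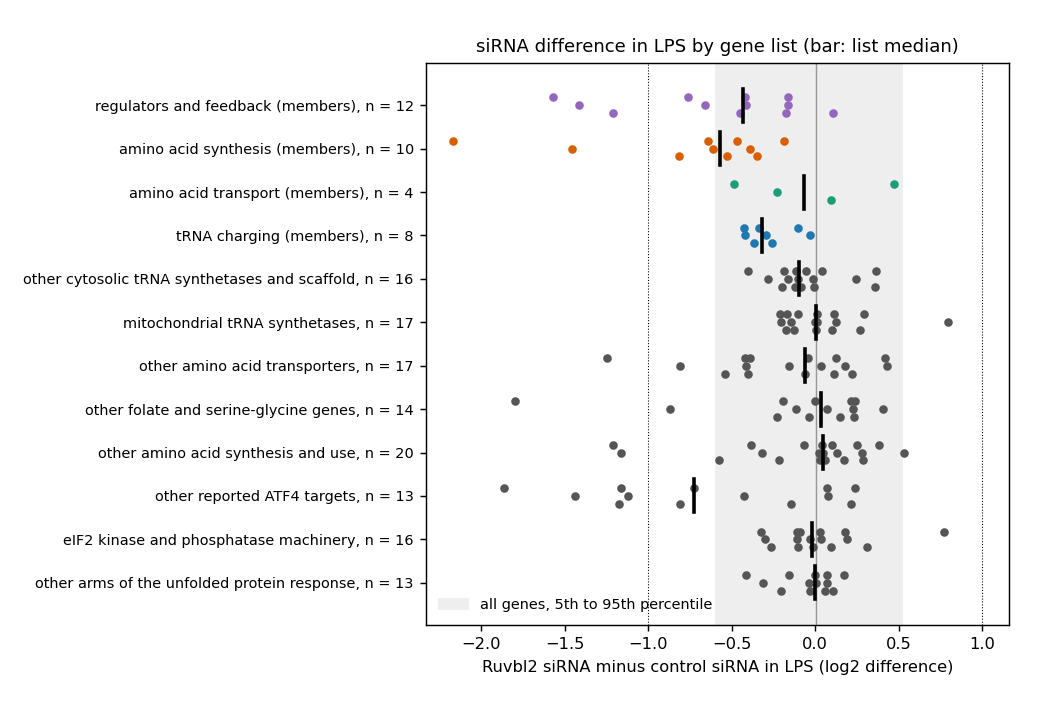
Log2 difference between Ruvbl2 siRNA and control siRNA in LPS for each compared gene (points) of the 4 member roles (coloured) and 8 other gene lists (grey), with the list median as a black bar, dotted lines at 2-fold and shading from the 5th to the 95th percentile of all 13470 genes compared. The medians run from -0.73 for other reported ATF4 targets and -0.57 for the synthesis members to 0.04 for the other folate and amino acid lists.

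Under LPS with control siRNA, 11 of the 13 other ATF4 targets compared lay above 0, with a median of 0.63. The 2 that were 2-fold higher, against 5.74% of all genes, were Gadd45a, a growth arrest gene (2.57), and Gdf15. With Ruvbl2 siRNA the median was 0.07 over 12 genes and none was past 2-fold, with Gadd45a at 0.86. Slc7a7 (2.11 and 1.04) and Slc7a11 (1.47 and 0.97) were higher in LPS with both siRNAs. Ass1 (1.61 and 0.03) and Aldh1l2 (1.33 and -0.42) passed 2-fold with control siRNA alone. The other cytosolic synthetases had medians of 0.28 and 0.03. The folate list had medians of 0.38 and 0.29, with 12 of 14 genes above 0 for either siRNA. For the other arms of the unfolded protein response they were 0.15 and 0.22, and for the eIF2 machinery 0.11 and 0.12. The other transporters had 0.19 and 0.05, the other synthesis genes -0.01 and 0.02, and the mitochondrial synthetases -0.06 and -0.15. In the eIF2 machinery, Eif2ak2 (PKR, a sensor of double-stranded RNA) was higher with both siRNAs, by 1.11 and 1.36, and Dnajc3, an inhibitor of eIF2 kinases, was lower, by -1.34 and -0.60.

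Other probes of the members read alike for the siRNA difference in LPS and less so elsewhere. Of 13 other measured probes of the members, 13 had the direction of the representing probe for the siRNA difference in LPS, with a largest gap of 0.40. In DMSO 7 of 13 did (largest gap 0.57), 11 of 13 did for LPS with control siRNA (0.73) and 9 of 13 for LPS with Ruvbl2 siRNA (0.61). For LPS with control siRNA and with Ruvbl2 siRNA, the dimmer probe of Psat1 gave 0.31 and 0.36, that of Cebpg 0.48 and 0.31, and that of Wars 0.40 and 0.39. That of Atf4 gave 0.36 and 0.45. By the dimmer probes of Atf4 and Psat1 the LPS difference was thus larger with Ruvbl2 siRNA, opposite to their brightest probes. For Wars it was nearly equal with the 2 siRNAs. For Cebpg it was smaller with Ruvbl2 siRNA, the direction of its brightest probe. Each of the 5 members past 2-fold in LPS except Pck2 rests on a single probe.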

How the data were processed

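RNA of RAW264.7 cells was measured in 4 groups of 1 Agilent array. Per the file headers, the deposited values are intensity values of Feature Extraction 11.5.1.1 (11.0 per the submitters' processing notes): the processed signal is background-subtracted and detrended within the array, neither log-scaled nor normalized between arrays. The deposited value table equalled it at all 62976 spots of each array. The flags for background, saturation and outlier spots are the scanner software's.

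Log2 processed signals were averaged per probe without outlier spots and centred on the array's 75th percentile. RefSeq accessions named 32989 of 56605 probes through a GRCm38.p6 gene table; the array's own annotation rests on another build, so no probe positions are given. A gene was represented by its brightest probe. Where only the brighter array was well above background, the dim one was set to the higher of its value and the lowest level well above background there ("at least"). Calls were made at 2-fold. The code was tested on simulated data. Members and lists were chosen with earlier results of these data known. Members past 2-fold, up to 3 largest differences per role and direction, and up to 3 called genes per other list are named.

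Alternatives were normexp (offset 50, on median signals, since the files hold no mean signal) followed by quantile normalization, quantile normalization of the processed signal, centring on the median of detected probes, E1A spike-in scaling, cyclic loess, the mean of probes, a minimum level of -2, no filter, and a 1.5-fold rule (R 4.3.3, limma 3.58.1).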

Additional observations from a re-analysis of the deposited data

Results flagged for a closer look

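Some members differed in opposite directions under the same contrast, by at least 2 technical SDs each way, with 1 array on each side; the difference was not tested. Between LPS and DMSO, 7 members were lower with Ruvbl2 siRNA in LPS and higher in DMSO. The LPS value minus the DMSO value was -0.34 for Atf5, -0.77 for Asns, -0.37 for Shmt2, -0.72 for Aldh18a1, -0.67 for Slc3a2, -0.56 for Sars and -0.47 for Gars. Their DMSO values were 0.13 to 0.19. With spike-in scaling, where the median of all genes in DMSO goes from 0.04 to -0.23, all 7 were below 0 in DMSO, from -0.14 for Sars to -0.07 for Aldh18a1. Between siRNAs, 6 members were higher in LPS than in DMSO with control siRNA and lower with Ruvbl2 siRNA. The second difference minus the first was -1.49 for Pck2, -0.72 for Aldh18a1, -0.65 for Eif4ebp1, -0.58 for Phgdh, -0.52 for Nars and -0.33 for Psat1. With spike-in scaling, the LPS values with Ruvbl2 siRNA of Eif4ebp1 (0.13), Psat1 (0.17), Aldh18a1 (0.03) and Nars (0.03) were above 0, and those of Pck2 (-0.29) and Phgdh (-0.01) stayed below. Other probes undid some of these reversals: the dimmer Psat1 probe was higher in LPS with both siRNAs (0.31 and 0.36), and the other Atf5 probe gave -0.05 in DMSO. The dimmer probes of Asns (0.03) and Shmt2 (0.07) were within technical error in DMSO, and that of Slc3a2 was 0.18 in DMSO and -0.09 in LPS.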

How the results depend on the processing

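No paired analysis was possible because each group is 1 array, and no replicate could be left out. The 5 members lower in LPS passed 2-fold under all 9 alternatives, and the median of members there ran from -0.44 to -0.37. For these 5, the changed filters and the 1.5-fold rule could not alter the difference, and the mean of probes could only for Pck2. With a 1.5-fold rule the counts were 10 lower in LPS, 1 lower in DMSO, 12 higher and 2 lower for LPS with control siRNA, 4 higher and 2 lower for LPS with Ruvbl2 siRNA, and 12 lower for the difference of LPS effects, with the shares of all genes given beside these counts in the results. With normexp correction and quantile normalization, LPS with Ruvbl2 siRNA gave 1 higher and 0 lower, and spike-in scaling gave 0 lower there and 2 lower for the difference of LPS effects. No called member reversed. Of the members' single values, Chac1 for LPS with Ruvbl2 siRNA passed 2-fold with spike-in scaling (1.07). Among low-level members (Cth in DMSO, Cbs, Slc7a5), signal close to background limits precision.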
